A study of Mus musculus with 4 samples.

Results

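The receptors described here are 9 genes through which lymphocytes sense cues for migration. They are the chemokine receptor genes Ccr6, Ccr7, Ccr9, Cxcr4 and Cxcr6, the scavenging chemokine receptor gene Ackr3, the oxysterol receptor gene Gpr183, and the sphingosine 1-phosphate (S1P) receptor genes S1pr1 and S1pr4. They were chosen by name as probe sets whose platform annotation gives a member alone, with the brightest probe set per gene. All 9 were found, each with 1 probe set, among 19938 named genes. The total RNA of 4 samples came from group 3 innate lymphoid cells (ILC3) that carry CCR6, lymphocytes without rearranged antigen receptors, sorted from mesenteric lymph nodes of naive C57BL/6 mice. The labels describe the sorted cells as CD127+ CD90.2+ CCR6+ ST2- and give no further gate marker, age or sex. Whether separate animals were used is not given, so the spread given below is that between these samples and may be partly technical. All samples form 1 group, so conditions and cell types could not be compared, and because Ccr6 was used to sort the cells its level is no finding.

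These receptors span the membrane 7 times, and apart from Ackr3 they signal mainly through G proteins of the Gi class to the machinery that moves the cell along a gradient. CCR6 senses CCL20, CCR7 senses CCL19 and CCL21 of the lymph node T zone, CCR9 senses CCL25 of the small intestine, CXCR4 senses CXCL12 and CXCR6 senses CXCL16. ACKR3 takes up CXCL12 without classical G protein signalling. GPR183 senses 7α,25-dihydroxycholesterol, an oxysterol made by CH25H and CYP7B1 and removed through HSD3B7, and it is known to place ILC3 in lymphoid structures of the mouse colon. S1PR1 senses S1P, which is plentiful in blood and lymph, and is known for letting lymphocytes leave lymph nodes.

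The values are log2 levels made by robust multi-array average (RMA), and a difference of 1 is a factor of 2 in signal. Probe sets of different genes bind with different strength, so levels were read against background, and genes were not ranked against each other by RNA amount. As background served 1236 sensory receptor genes (olfactory, vomeronasal, trace amine and bitter taste), whose means had a median of 4.25 and a 95th percentile of 5.82. The detection p is an exact one-sided rank of a gene's mean among these, with Benjamini-Hochberg adjustment over the 19938 named genes, and a gene is called above background with an adjusted p under 0.05. The smallest p that this rank can give is 0.000808, which is 0.0108 after adjustment. Called genes began at a mean of 6.37. Of the 1236 background genes 27 were themselves called, and the highest background mean was 9.14. A further 15 genes typical of liver, muscle and further organs served as organ controls. Of these 5 were called, and their highest value was 7.42 for the muscle gene Ckm, so it is also stated which genes exceeded all organ controls in each sample. In bulk RNA, fewer cells with a transcript and less transcript per cell cannot be told apart.

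Of the 9 receptors, 7 were called above background, against 46.2% of all named genes. The same 7 exceeded the organ controls in each sample, against 25.0% of all named genes. Their combined median level, with the receptors that were not called included, was 9.60, against 6.16 for all named genes. The members were chosen with earlier results of these data known, so these shares describe the choice and give no independent evidence. Ccr6, Ccr7, Cxcr4, Cxcr6, Gpr183, S1pr1 and S1pr4 were called, and Ccr9 and Ackr3 were not.

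**Figure D1:**
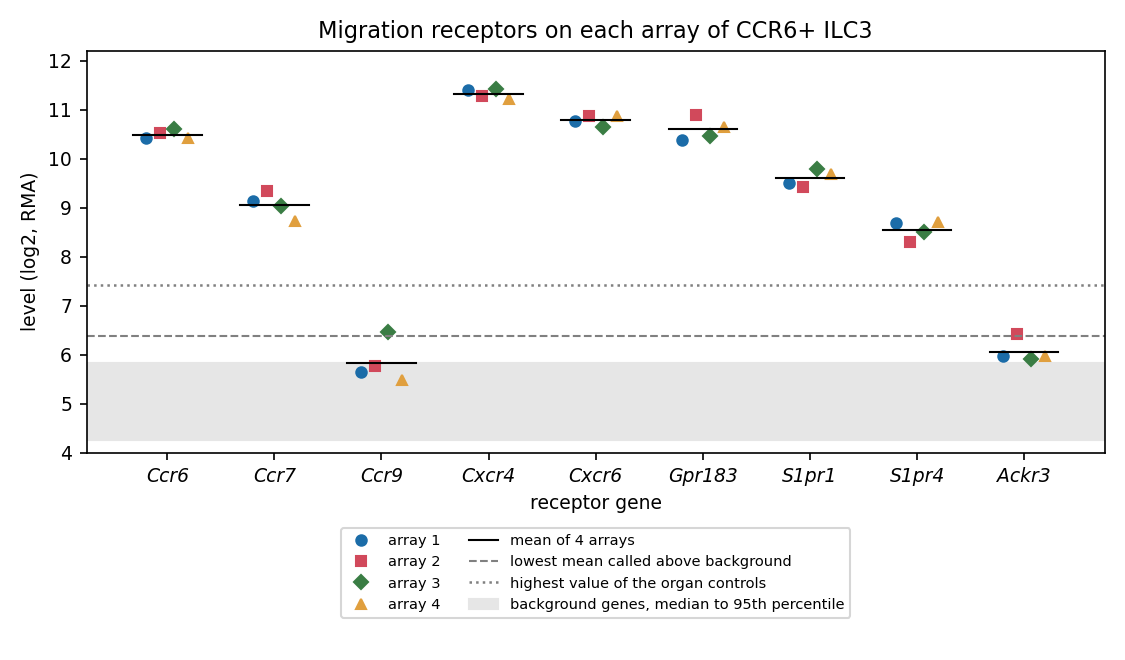
Level of each receptor gene (log2, RMA) on the 4 arrays, with 1 point per array and a bar at the mean. The shaded band runs from the median to the 95th percentile of the background genes (4.25 to 5.82), the dashed line marks the lowest mean called above background (6.37) and the dotted line the highest value of the organ controls (7.42). The points of 7 receptors lie above the dotted line on every array, and those of Ccr9 and Ackr3 lie below it.

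Ccr6, the receptor gene of the gate, was at 10.42, 10.52, 10.60 and 10.42 on arrays 1 to 4. Its mean was 10.49 ± 0.086 (SD, n = 4; every ± below is such an SD), with 0 of the 1236 background genes at or above it. All arrays lay within 0.18 log2 units of each other, a factor of 1.13. That SD was larger than that of 19.1% of all called genes, so the gated transcript differed little between the samples.

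Cxcr4, the receptor for CXCL12, was at 11.39, 11.28, 11.41 and 11.22, with a mean of 11.33 ± 0.093. Its lowest array still lay 3.80 log2 units above the highest value of any organ control. Arrays 1 and 3 were the higher ones, but the whole range was 0.19 log2 units. Cxcr6, the receptor for CXCL16, was at 10.76, 10.86, 10.65 and 10.86, with a mean of 10.78 ± 0.097. Arrays 2 and 4 carried the same deposited value for Cxcr6 to all printed digits. RMA can produce such ties, which 10.9% of called genes showed, and the SD can then be too small. The adjusted detection p was 0.0108 for Ccr6, Cxcr4 and Cxcr6, an exact rank p at its smallest possible value.

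Ccr7, which guides cells into and within lymph nodes, was at 9.14, 9.33, 9.03 and 8.72 on arrays 1 to 4. Its mean was 9.06 ± 0.255, with 1 of the background genes at or above it and an adjusted exact rank p of 0.0143. Array 2 was highest and array 4 lowest, a range of 0.61 log2 units or a factor of 1.53. This was the widest range among the 7 called receptors, and the SD was larger than that of 74.2% of called genes. Even the lowest array was 1.30 log2 units above the highest value of the organ controls.

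Gpr183, the oxysterol receptor, was at 10.38, 10.89, 10.47 and 10.64, with a mean of 10.59 ± 0.221. No background gene reached it, and its lowest array lay 2.96 log2 units above the organ controls. Array 2 was highest and array 1 lowest, a factor of 1.42 apart. Its SD was larger than that of 66.1% of called genes and came nearest to that of Ccr7 among the called receptors.

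S1pr1, the S1P receptor that serves exit from lymph nodes, was at 9.51, 9.41, 9.79 and 9.69, with a mean of 9.60 ± 0.171. Arrays 3 and 4 were higher than arrays 1 and 2, within a range of 0.38 log2 units. S1pr4, an S1P receptor found mainly on blood cells and lymphocytes, was at 8.69, 8.30, 8.50 and 8.70, with a mean of 8.55 ± 0.188. Array 2 was lowest for both S1P receptors. For S1pr1 0 of the background genes were at or above the mean and for S1pr4 2 were, with adjusted exact rank p-values of 0.0108 and 0.0143. S1pr4 had the smallest distance from the organ controls among the 7, its lowest array being 0.88 log2 units above their highest value.

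Ccr9, the receptor of homing to the small intestine, was at 5.64, 5.76, 6.45 and 5.48, with a mean of 5.83 ± 0.424. Of the background genes 61 (4.94%) were at or above this mean, and the adjusted exact rank p was 0.0873. It was not called with any of the 4 arrays left out, the adjusted p then lying between 0.0757 without array 4 and 0.105 without array 3. Array 3 was the highest, and it was the only array on which Ccr9 passed the 95th percentile of background. The mean of the 10 called T cell markers was 7.94, 7.87, 8.18 and 7.92 on arrays 1 to 4, with 6 of them highest and 2 lowest on array 3. Cd3g and Cd8b1, picked from that list after their values were seen, were at 9.51 and 8.46 on array 3 and at 8.47 to 8.59 and 7.23 to 7.58 on the others, while Cd5 was at 7.39 on array 3 and at 7.62 to 7.89 on the others. The immunoglobulin A gene Igha and the joining chain gene Jchain, both chosen after their values were seen, were at 10.66 and 9.96 on array 3 and at 6.33 to 7.27 and 6.96 to 8.14 on the others. Array 3 was also highest for 8 of 10 called B cell markers and 3 of 5 called dendritic cell and macrophage markers. In each of these lists 1 marker was lowest there. For ILC3, natural killer cell and ILC1, and stroma and endothelium markers it was highest for 0 of 10, 1 of 7 and 0 of 4. T cells and IgA plasma cells are known to carry Ccr9, and their part in its level on array 3 was not tested.

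Ackr3, the scavenger of CXCL12, was at 5.97, 6.41, 5.90 and 5.96, with a mean of 6.06 ± 0.236. Of the background genes 43 (3.48%) were at or above it, and the adjusted exact rank p was 0.0678. Array 2 stood apart from the other 3, which lay within 0.07 log2 units of each other. This call depended on the rule. In each sample Ackr3 exceeded the 95th percentile of the background genes, a rule that called 54.4% of all named genes and 8 of the 9 receptors. With limma's moderated test against that percentile, which called 53.9% of all named genes and the same 8 receptors, its adjusted p was 0.0312. Both of these rules also called 9 of the 15 organ controls, against 5 in the detection test. A level near background on 1 probe set does not show that a transcript was missing.

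The spread over the 4 arrays was compared with that of all 9203 called genes, whose median SD was 0.168 and whose SDs ran from 0.039 to 0.476 between the 5th and 95th percentiles. The SDs of the 7 called receptors lay between 0.086 for Ccr6 and 0.255 for Ccr7, and 4 of the 7 were above that median. Their widest and narrowest ranges over the arrays were factors of 1.53 and 1.13. The median SD of all 9 receptors was 0.188, and it was 0.111 without array 2, on which Ccr7, Gpr183 and Ackr3 were highest and S1pr1 and S1pr4 lowest. Over called genes, Pearson's r between arrays lay between 0.948 and 0.962 in the 6 pairs, a description across genes that are not independent replicates.

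The labelled cell type was checked against marker genes. All 10 of the ILC3 markers analysed were called and exceeded the organ controls, among them Il7r at 12.56 ± 0.057 and Id2 at 11.54 ± 0.116. Their mean over the arrays ranged from 10.51 to 10.64. The sort used CD127 and CD90.2, the products of Il7r and Thy1, so the levels of these genes are no check of the cell type. Some markers of other cells were called as well, against 46.2% of all named genes. Of 11 B cell markers 10 were called, including Cd79b at 9.84 ± 0.554 and Pou2af1 at 9.19 ± 0.348, and the mean of the called ones was 8.91, 7.99, 9.09 and 7.86 on arrays 1 to 4. Of 12 T cell markers 10 were called, including Lat at 10.03 ± 0.122 and Cd3e at 8.91 ± 0.221, with means of the called ones between 7.87 and 8.18. Lat and Il7r are not specific, since several lymphocytes carry them. Of 12 natural killer (NK) cell and ILC1 markers 7 were called, including Ccl5 at 9.81 ± 0.825 and Klrk1 at 8.28 ± 0.611, with means between 7.47 and 7.95. Of 12 dendritic cell and macrophage markers 5 were called, including Lyz2 at 8.22 ± 0.732 and Fscn1 at 7.33 ± 0.714, with means between 6.75 and 7.61. Of 10 stroma and endothelium markers 4 were called, including Pecam1 at 8.44 ± 0.180 and Col1a1 at 6.93 ± 0.091, with means between 6.99 and 7.22. The shares called were near or under that of all named genes for the dendritic cell and macrophage list and the stroma and endothelium list. All 4 arrays exceeded the organ controls for 9 B cell, 5 T cell and 3 NK cell and ILC1 markers, for Lyz2 alone of the dendritic cell and macrophage markers and for Pecam1 alone of the stroma and endothelium markers, against 25.0% of all named genes. Of these lists, the B cell markers had the widest range of means between the arrays. No probe set on these arrays is at 0, so none of these markers can be given as absent.

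B cells and T cells carry several of these receptors, among them Ccr7, Cxcr4 and S1pr1. The B cell marker mean spanned 1.23 log2 units between arrays 3 and 4, and the 7 called receptors spanned from 0.18 for Ccr6 to 0.61 for Ccr7. Cxcr4 was higher on arrays 1 and 3 than on arrays 2 and 4, as was the B cell marker mean. Ccr6, Cxcr4, S1pr1 and the uncalled Ccr9 were highest on array 3, at 10.60, 11.41, 9.79 and 6.45. The B cell and T cell marker means were highest there too, at 9.09 and 8.18. Cxcr6 and the uncalled Ackr3 were lowest on array 3, at 10.65 and 5.90. Ccr7 and Gpr183 were highest on array 2, where the B cell marker mean was 7.99, against 9.09 on array 3. S1pr4 was lowest on array 2 and at like values on arrays 1 and 4, where the B cell marker means were 8.91 and 7.86. The part of other cells in the receptor levels was not tested.

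**Figure D2:**
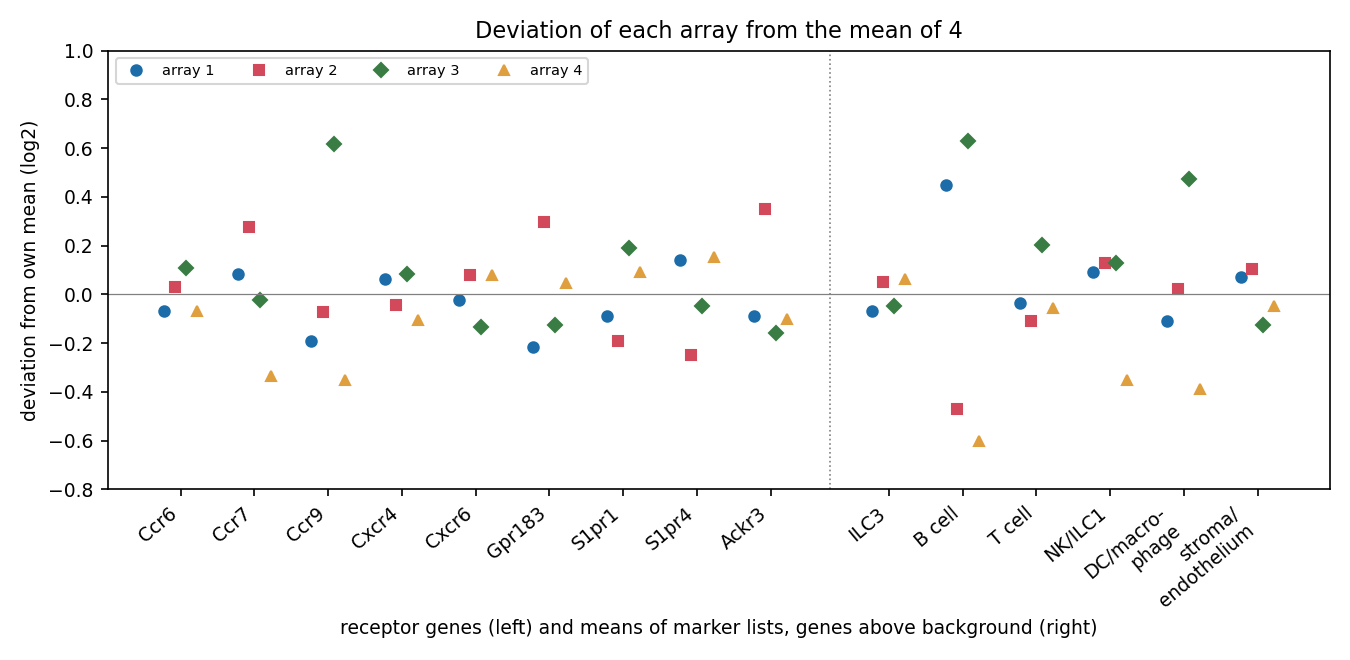
Deviation of each array from the mean of the 4 arrays (log2), with 1 point per array, for the 9 receptor genes on the left and for the mean of the genes above background in each of 6 marker lists on the right. The B cell marker means spread over 1.23 log2 units and those of the 7 called receptors over at most 0.61.

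The receptors were also set beside their neighbours in the genome, as a description of levels already given for the members. In the gene order of the RefSeq table (assembly GRCm38.p6), Ccr9 and Cxcr6 lie on chromosome 9 with only the gene Fyco1 between them among protein-coding genes, and further chemokine receptor genes follow. From Lztfl1, the gene before Ccr9, to Ccr2 there were 9 protein-coding genes, all analysed. Of these 4 were called, a share near the 46.2% of all named genes. They were Lztfl1 at 9.40 ± 0.104, Fyco1 at 8.42 ± 0.029, Cxcr6 at 10.78 ± 0.097 and Ccr2, a receptor of inflammatory chemokines, at 7.17 ± 0.090. Ccr9, Xcr1, Ccr1, Ccr1l1 and Ccr3 were not called, the last 4 of them at 4.63 ± 0.099, 4.77 ± 0.150, 4.93 ± 0.048 and 4.95 ± 0.084. Cxcr6 was thus the only chemokine receptor gene among those analysed in this stretch with all 4 arrays above the organ controls. The gene before Gpr183 is Gpr18, another G protein-coupled receptor gene, which was chosen after its values were seen and was called at 9.52 ± 0.208, with 9.35, 9.44, 9.82 and 9.47 on arrays 1 to 4.

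**Figure D3:**
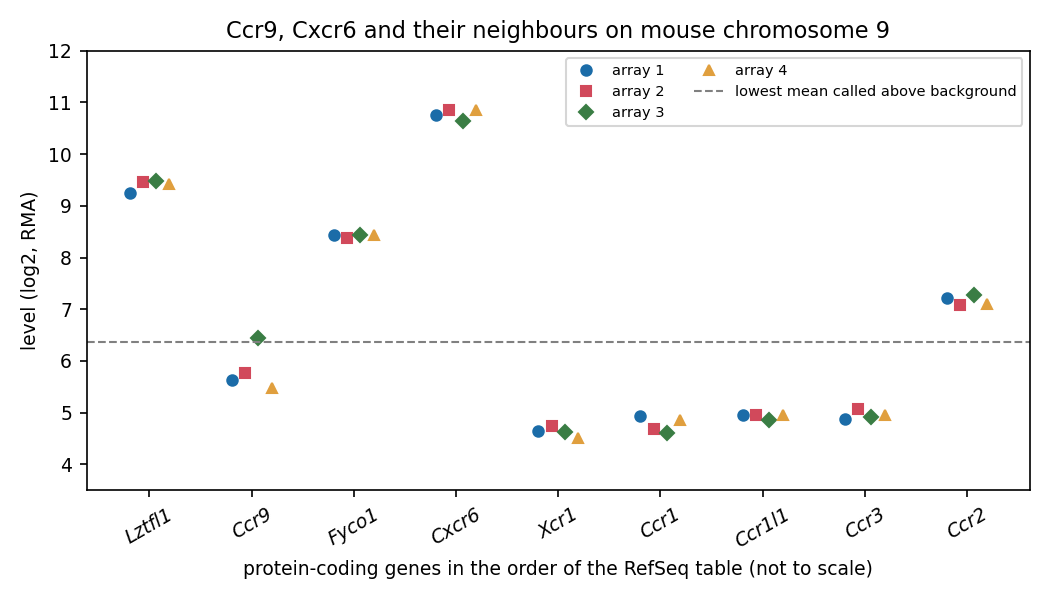
Level (log2, RMA) of the protein-coding genes from Lztfl1 to Ccr2 on mouse chromosome 9, in gene order and not to scale, with 1 point per array. Cxcr6 lies between 10.65 and 10.86, and Lztfl1, Fyco1 and Ccr2 have means of 9.40, 8.42 and 7.17. Those of Ccr9, Xcr1, Ccr1, Ccr1l1 and Ccr3 lie between 4.63 and 5.83, below the dashed line (6.37, lowest mean called above background).

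Promoter windows of Ccr6, the gated receptor, and of the neighbours Ccr9 and Cxcr6, which differed in their call, are shown so that the sequences before their starts can be compared. Each is the 250 bases before the RefSeq gene start (GRCm38.p6), 5′ to 3′ on the gene's strand. RefSeq windows were matched for 7 of the 9 receptors, 8 windows in all since Ccr6 has 2, of which the first is shown, and none was matched for Ccr7 and S1pr1. Capitals mark 2 of the motifs searched, AGGTCA (a half-site of nuclear receptors) and TGTGGT (the core of RUNX factors), on either strand.
Ccr6, chr17:8235793-8236042, + strand: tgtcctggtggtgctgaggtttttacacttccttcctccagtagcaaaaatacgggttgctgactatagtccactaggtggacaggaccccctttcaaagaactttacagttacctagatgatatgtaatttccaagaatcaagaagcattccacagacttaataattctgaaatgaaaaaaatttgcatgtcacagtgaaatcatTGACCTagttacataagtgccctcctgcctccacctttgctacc
Ccr9, chr9:123766961-123767210, + strand: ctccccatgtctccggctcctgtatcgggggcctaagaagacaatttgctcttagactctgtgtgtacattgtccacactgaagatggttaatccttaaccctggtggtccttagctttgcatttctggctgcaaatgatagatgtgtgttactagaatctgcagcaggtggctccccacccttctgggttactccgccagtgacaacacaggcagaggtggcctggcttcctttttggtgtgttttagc
Cxcr6, chr9:123806227-123806476, + strand: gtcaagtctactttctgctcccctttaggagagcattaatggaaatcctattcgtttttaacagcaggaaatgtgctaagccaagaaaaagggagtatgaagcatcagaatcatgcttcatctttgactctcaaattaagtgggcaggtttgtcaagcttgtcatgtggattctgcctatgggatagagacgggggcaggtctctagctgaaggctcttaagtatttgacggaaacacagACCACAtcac
The Ccr6 window holds the nuclear receptor half-site on the opposite strand, starting 44 bases before the gene start, and 14.0% of all 32851 RefSeq windows of this length hold that motif. The Cxcr6 window holds the RUNX core on the opposite strand, starting 10 bases before the gene start, and 14.0% of all windows hold it. The Ccr9 window holds neither. Among the 8 receptor windows 1 held the nuclear receptor half-site and 2 the RUNX core, the other being that of Ackr3. CACCC, a core of KLF factors, was in 3 of the 8, those of Ccr9, Cxcr4 and S1pr4, and in 52.0% of all windows. CCGCCC, a GC box, was in 2 of the 8, those of Cxcr4 and Ackr3, and in 32.7% of all windows. The 4 motifs do not contain each other, and a match is a description of letters, not a binding site.

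The other genes around the receptors were examined in 10 lists with 107 members, of which 99 were analysed, 65 called and 51 exceeded the organ controls in each sample. Against that, 46.2% of all named genes were called and 25.0% exceeded the organ controls in each sample. Of 16 other chemokine receptors 7 were called, a share near that of all named genes, and 3 exceeded the organ controls. These were Cxcr5, the receptor for the B cell follicle chemokine CXCL13, at 8.58 ± 0.327, Cx3cr1 at 8.10 ± 0.251 and Ccr8 at 7.87 ± 0.230. Cxcr5 was at 8.75, 8.89, 8.51 and 8.14, so that, as for Ccr7, array 2 was highest and array 4 lowest. Ccr2 at 7.17 ± 0.090 and Ccrl2, a non-signalling receptor, at 6.81 ± 0.176 were called but did not exceed the organ controls, and Cxcr1 at 5.92 ± 0.135 and Ackr2 at 5.76 ± 0.113 were not called.

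Of the 3 other S1P receptor genes 2 were called, S1pr3 at 8.11 ± 0.736 and S1pr2 at 7.73 ± 0.126, both above the organ controls, and S1pr5 at 5.84 ± 0.234 was not. Among all named genes 46.2% were called and 25.0% exceeded the organ controls. S1PR2 is known to hold back migration towards S1P. S1pr3 was at 7.58, 9.19, 7.72 and 7.93, so that array 2 was at least 1.26 log2 units above each of the others, on the array where S1pr1 and S1pr4 were lowest.

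Ligand genes of the receptors were mostly at background in these cells, while 46.2% of all named genes were called. Of 6 chemokine ligands analysed 1 was called, Ccl19, the CCR7 ligand made by lymph node stroma, at 6.94 ± 0.202 and within the range of the organ controls. The genes of the ligands for CCR9 and CCR6, Ccl25 at 6.15 ± 0.157 and Ccl20 at 5.47 ± 0.290, were not called, nor were Cxcl12 at 4.84 ± 0.008 and Cxcl16 at 5.43 ± 0.227, and the CCL21 genes are not analysed here. With the dimmest probe set of each gene Ccl19 was at 6.20 and no longer called, with an adjusted exact rank p of 0.0552. Of the 4 oxysterol enzyme genes 0 were called by the detection test, 0 had an unadjusted p under 0.05 and limma's test called 0. Ch25h, Cyp7b1, Hsd3b7 and Cyp27a1 were at 4.54 ± 0.042, 4.08 ± 0.054, 5.49 ± 0.125 and 5.68 ± 0.097.

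Genes that make, break down or carry S1P were called in 5 of 8 cases, against 46.2% of all named genes. The organ controls were exceeded by 3, against 25.0% of all named genes. These were Sgpp1, an S1P phosphatase, at 8.49 ± 0.147, Sgpl1, the S1P lyase, at 7.99 ± 0.189 and Sphk2, a sphingosine kinase, at 7.68 ± 0.152. The S1P exporter Spns2 at 6.62 ± 0.103 and the lipid phosphatase Plpp3 at 6.50 ± 0.215 were called but did not exceed the organ controls, and Plpp3 was not with olfactory receptors alone as background, with an adjusted exact rank p of 0.0527. Mfsd2b at 5.76 ± 0.172, Sgpp2 at 5.75 ± 0.105 and Sphk1 at 5.71 ± 0.022 were not called.

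Of 20 G protein subunit genes 13 were called and 11 exceeded the organ controls, against 46.2% and 25.0% of all named genes. Gnai2, the main Gi subunit of lymphocytes, was at 11.05 ± 0.051, beside Gng5 at 10.54 ± 0.191, Gnb1 at 10.30 ± 0.145, Gna13, which couples S1PR2, at 9.43 ± 0.141 and Gng2 at 9.24 ± 0.188. Gng7 at 6.31 ± 0.016 and Gna15 at 6.05 ± 0.242 were not called, although Gng7 was without array 1 or array 2, at 6.31 each.

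Genes that switch the receptors off were called in part, beside 46.2% of all named genes. Of 7 receptor kinase and arrestin genes 4 were called, the arrestins Arrb2 at 9.18 ± 0.032 and Arrb1 at 8.63 ± 0.136 and, within the range of the organ controls, the kinases Grk6 at 6.95 ± 0.119 and Grk5 at 6.56 ± 0.293. Grk3 at 5.90 ± 0.148 and Grk1 at 5.07 ± 0.054 were not called, and Grk2 is not analysed here. Of 8 RGS genes, whose proteins speed the return of G proteins to rest, 6 were called, among them Rgs3 at 9.39 ± 0.076, Rgs1 at 9.37 ± 0.301, Rgs2 at 8.70 ± 0.189, Rgs19 at 8.15 ± 0.160 and Rgs18 at 7.86 ± 0.249. Rgs16 at 6.12 ± 0.073 and Rgs13, known from germinal centre B cells, at 3.74 ± 0.099 were not called. Rgs3 was at 6.08 on its dimmest probe set, which was not called.

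All 22 migration effector genes were called, and 20 exceeded the organ controls in each sample, against 46.2% and 25.0% of all named genes. Among them the small GTPase genes Cdc42, Rac2, Rap1b and Rap1a were at 11.18 ± 0.050, 11.15 ± 0.070, 10.89 ± 0.075 and 10.61 ± 0.165, and Dock2, an exchange factor for Rac needed for lymphocyte chemotaxis, was at 10.49 ± 0.042. All 5 regulators analysed exceeded the organ controls. Klf3 was at 10.16 ± 0.062, Foxo3 at 8.94 ± 0.120 and Cd69, whose protein removes S1PR1 from the cell surface, at 8.62 ± 0.168. Klf2 and Foxo1, transcription factors that raise S1pr1 and Ccr7 in T cells, were at 7.88 ± 0.083 and 7.93 ± 0.086.

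**Figure D4:**
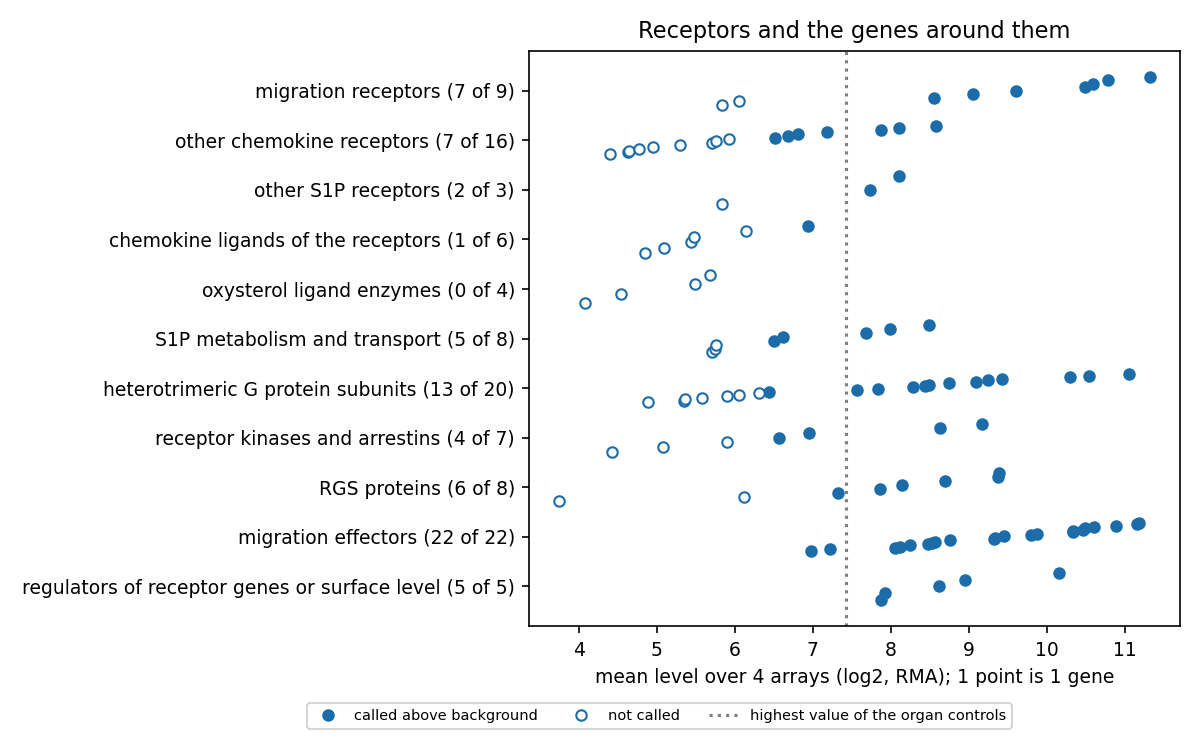
Mean level over 4 arrays (log2, RMA) of each gene analysed, with 1 point per gene, for the migration receptors at the top and for 10 lists of genes around them, filled where called above background. The dotted line is the highest value of the organ controls (7.42), and the labels give the genes called of those analysed, from 22 of 22 migration effectors to 0 of 4 oxysterol enzymes.

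For the 6 receptors whose SD exceeded the median of called genes, the genes with the most similar deviations over the 4 arrays were sought among the 4987 genes that exceeded the organ controls in each sample. Likeness was the root mean square difference of the deviations from the own mean. For Ccr7 these were Rbx1, Serpinb1a and Mrpl23, at 0.0157, 0.0270 and 0.0359 log2 units. For Gpr183 they were Micos10, Parp3 and Cdk6 at 0.0125, 0.0233 and 0.0233. For S1pr1 they were Pigt, Akt2 and Ms4a6b at 0.0111, 0.0175 and 0.0214, and for S1pr4 Ctdsp1, Agap2 and B4galnt1 at 0.0110, 0.0170 and 0.0172. For Ccr9 they were Txnl4b, U2af1l4 and Bckdk at 0.0299, 0.0370 and 0.0492, and for Ackr3 Kmt2d, D030056L22Rik and Apex1 at 0.0412, 0.0458 and 0.0460. With 4 arrays such matches are common, as 114 genes lay within 0.1 log2 units of Ccr7 and 294 of S1pr1, and they say nothing of shared function.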

How the data were processed

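Total RNA of 4 sorted samples was hybridised to 1 array each. The authors deposited log2 levels, 1 per probe set, computed with RMA per the submitters' processing notes. A version, the software and a genome build were not given in the sources used here. The table held 35556 probe sets, of which 21789 had 1 gene symbol in GEO's platform annotation, 1621 had several and were left unnamed, and 12146 were not listed. Symbols were updated through Entrez identifiers for 21698 probe sets (RefSeq, GRCm38.p6). The brightest probe set per gene gave 19938 genes. Detection p-values were computed in Python 3.11.15, limma 3.58.1 (R 4.3.3) was the alternative, and both were run on simulated data. No rates from that run are given, so it does not tell how often either test calls a gene near background. Scanner files were not used here, so background correction could not be varied, and 4 arrays limit the precision.

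The members, lists and tests were chosen with earlier results of these data known. The text names all members, up to 5 called and 2 uncalled genes with the highest means of each list around them, up to 2 called genes of each marker list, and 3 genes nearest in pattern to each variable member. Other names were chosen after their values were seen. Promoter sequences are RefSeq's. A planned comparison of protein sequences was not made. Alternatives covered the background genes, the call rule, the probe set, scaling, a filter on dim genes and leaving out each array.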

Additional observations from a re-analysis of the deposited data

Results flagged for a closer look

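Among 115 genes named in the text, 12 had an array that lay far from the other 3 for the range of the 4 values, and chance gives about 1 in 20 for values without ties. The other 3 arrays were tied for Pecam1 and Ccr1l1, so that this rate does not hold for that pair. Some of the 115 genes were named for their likeness to a receptor or after their values were seen. The count of 12 can therefore not be weighed against that rate. Of the 9 receptors, Ackr3 was the only one among these 12 genes, at 6.41 on array 2 against 5.90 to 5.97 on the others. Array 2 was also apart for Gng5, at 10.83 against 10.44 to 10.46, Klf3, at 10.07 against 10.19 to 10.20, and Fyco1, at 8.38 against 8.44, and for Kmt2d at 10.29 and D030056L22Rik at 8.51, which were picked for their likeness to Ackr3. Array 3 was apart for Cd3g at 9.51, Ckm at 7.12, Pecam1 at 8.17 against 8.53 on the other 3, and Ccr1l1 at 4.86 against 4.96. Array 1 was apart for Foxo3 at 8.77 and Rgs16 at 6.22.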

How the results depend on the processing

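The count of 7 called receptors was the same with olfactory receptors alone as background and with arrays centred or quantile normalized again. It was also the same with dim genes left out and without each array in turn (7 to 7). The dimmest or the mean probe set gave 7 as well. Each receptor has only 1 probe set, so the receptor values could not change under those settings. The count was 8, with Ackr3 added, when each array had to exceed the 95th percentile of the background genes, and by limma's test. Those rules called 54.4% and 53.9% of all named genes. The genes around the receptors gave 65 calls, 62 to 69 under the alternatives and 64 to 66 without 1 array. Leave-one-out counts were 7 to 7 for other chemokine receptors, 2 to 2 for S1P receptors, 1 to 1 for chemokine ligands, 0 to 0 for oxysterol enzymes, 5 to 5 for S1P metabolism, 12 to 14 for G protein subunits, 4 to 4 for kinases and arrestins, 6 to 6 for RGS genes, 22 to 22 for effectors and 5 to 5 for regulators. Chemokine ligands, 1 in the main reading, were 2 by the 95th percentile rule, 2 by limma and 0 with the dimmest probe set. Under the 95th percentile rule and limma, Ccl25, Gng7, Gna15 and Rgs16 were also called, and Igha was lost by limma, at an adjusted p of 0.0513. The median SD of the receptors, 0.188, ranged from 0.111 without array 2 to 0.201 without array 1 when single arrays were left out. It was 0.207 after quantile normalization once more. The causes were not tested. No paired analysis was possible because the samples form 1 group. Levels within the range of the organ controls carry little weight.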

Other observations

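Cxcr3, an interferon-linked chemokine receptor gene of T cells and NK cells, was chosen after its values were seen. Its mean was 6.68 ± 0.558, called but not above the organ controls, with 6.14, 7.28, 7.02 and 6.27 on arrays 1 to 4. S1pr3 was at 7.58, 9.19, 7.72 and 7.93 and was highest on array 2 as well. Of the 7 called NK cell and ILC1 markers 2 were highest on array 2 and 4 on array 1.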
